A study of Mus musculus with 15 samples.

Results

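Ketone bodies are small water-soluble fuels that carry the energy of fatty acids between tissues. Mitochondria make acetoacetate from acetyl-CoA, mainly in the liver but also in the lining of the large intestine, where butyrate from gut microbes supplies the acyl-CoA. Acetoacetate is reduced reversibly to beta-hydroxybutyrate, and tissues that burn either of them turn acetoacetate into acetoacetyl-CoA and then into acetyl-CoA for the citric acid cycle. The genes described here are 4 genes of ketone body synthesis and use, Bdh1, Bdh2, Oxct1 and Acat1, of 45804 genes with a unique symbol in the cecal RNA table. The rule took the rows with these symbols. Bdh1 encodes the mitochondrial enzyme that converts acetoacetate and beta-hydroxybutyrate into each other. Oxct1 encodes the enzyme that moves coenzyme A from succinyl-CoA to acetoacetate, the committed step of ketone body use. Acat1 encodes the mitochondrial thiolase that reversibly splits acetoacetyl-CoA into acetyl-CoA and also works in isoleucine breakdown. Bdh2 encodes a cytosolic dehydrogenase that is named as a second enzyme of this kind and is also known for a part in iron handling.

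The comparison asks how the cecum expressed these genes after antibiotic-induced microbiome depletion (AIMD). Male C57BL/6 mice on normal chow, 20 weeks old by the sample labels, were gavaged 2 times a day for 30 days. The 7 AIMD mice got 4 antibacterial drugs (ampicillin, neomycin, vancomycin and metronidazole) with the antifungal amphotericin B, and the 8 vehicle-treated mice got water. All mice carried a wild-type genome. The whole cecal wall, emptied of its content, was sequenced. Reads on genes, as recovered from the FPKM values, were 8679672 to 18108573 per AIMD mouse and 4372409 to 14405935 per vehicle-treated mouse. Levels are given as FPKM (reads per length of transcript and per depth of library), divided by a size factor for each mouse.

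The mice and the tissue were checked first. Epcam, which marks epithelium, was at 1854 ± 333 (SD, n = 7) and 1618 ± 172 (SD, n = 8) FPKM in AIMD and vehicle-treated mice. The wall also held other cells. The summed level of 5 smooth muscle markers was 154 to 582 FPKM in AIMD mice, 395 to 1046 in vehicle replicates 1 to 7 and 2179 in vehicle replicate 8, and 1 of the 5, Tagln, was called lower in AIMD mice by limma. Of 5 enteric neuron and glia markers, 4 were tested and all 4 were called lower, beside 16.6% of all genes tested. The summed level of the 5 was 2.45 to 4.12 FPKM in AIMD mice, 4.51 to 23.3 in vehicle replicates 1 to 7 and 72.7 in vehicle replicate 8, which was also the mouse with the fewest reads. Of 4 fat cell markers, Plin1 and Lep were at most 0.118 and 0.270 FPKM in any mouse and Adipoq at most 5.15, while Cidec had means of 14.4 and 15.1 in AIMD and vehicle-treated mice. Vil1 and Krt8 of epithelium, Cdhr5 of mature colonocytes, Tff3 of goblet cells and Csf1r of immune cells were called higher in AIMD mice, and Aqp8 of colonocytes, Muc2 of goblet cells and Adipoq of fat cells lower. Over all genes tested, 19.4% were called higher and 16.6% lower. All of these marker calls include vehicle replicate 8. The part of these cell types in the results was not tested. Because vehicle replicate 8 stood apart, the main results on the 4 genes are also given without it. In RNA from a whole wall, fewer cells of a type and less RNA per cell cannot be told apart.

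Oxct1 was higher in AIMD mice. The gene spans chromosome 15, plus strand, 4026383 to 4155344 (GRCm38). Levels ran from 45.0 to 73.5 FPKM in AIMD mice (median 57.4), and from 27.4 to 53.0 in vehicle-treated mice (median 35.2). In 6 of 7 AIMD mice the level was above that of every vehicle-treated mouse, and 7 of 8 vehicle-treated mice were below every AIMD mouse. The mean was 60.7 ± 10.3 (SD, n = 7) against 36.6 ± 7.92 (SD, n = 8), a ratio of 1.66. On the log2(FPKM + 0.5) scale the difference was 0.73 (standard error 0.14, 95% interval 0.43 to 1.03, limma adjusted p = 0.00101). Exact permutation of the group labels, two-sided with 6435 arrangements, gave p = 0.000622. The overlap came from vehicle replicate 8, at 53.0. Without that mouse the highest vehicle-treated mouse was at 41.5, the groups did not overlap, and the difference was 0.81 (limma adjusted p = 0.000162).

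Acat1 was also higher in AIMD mice, and its groups did not overlap. The gene spans chromosome 9, minus strand, 53580522 to 53610382. AIMD mice ran from 35.8 to 56.5 FPKM with a median of 42.8, and vehicle-treated mice from 15.6 to 32.8 with a median of 30.7. The means were 43.6 ± 6.40 (SD, n = 7) and 28.1 ± 6.01 (SD, n = 8), a ratio of 1.55. The log2 difference was 0.64 (standard error 0.15, 95% interval 0.32 to 0.97, limma adjusted p = 0.00378). The exact permutation p was 0.000155, the smallest that 7 mice against 8 allow. At the top of each range, AIMD replicate 2 stood well above the next AIMD mouse, at 44.4, while the 4 highest vehicle-treated mice lay close together between 31.7 and 32.8. Vehicle replicate 8 had the lowest level, and without it the next lowest was 24.2 and the difference was 0.53 (limma adjusted p = 0.00169).

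Bdh1 had nearly the same mean in both groups. The gene spans chromosome 16, plus strand, 31422280 to 31458901. AIMD mice ran from 40.8 to 52.5 FPKM with a median of 49.3, and vehicle-treated mice from 31.5 to 66.3 with a median of 47.1. All AIMD mice lay inside the vehicle range, with 3 vehicle-treated mice above all of them and 2 below all of them. Mean values were 47.5 ± 4.02 (SD, n = 7) and 47.9 ± 11.3 (SD, n = 8). The log2 difference was 0.02 (standard error 0.14, limma adjusted p = 0.920, exact permutation p = 0.884). Its 95% interval ran from -0.28 to 0.32 and does not show that the groups were the same. The sign of so small a value changed with the scaling and with the mice included, and without vehicle replicate 8 it was -0.057 (limma adjusted p = 0.740). The SD was 8.47% of the mean with AIMD and 23.5% with vehicle, a contrast that was not tested.

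Bdh2 was barely detected. The gene spans chromosome 3, plus strand, 135281221 to 135304426. Its FPKM was 0.0368 to 0.147 in AIMD mice, with a median of 0.0809, and 0.0172 to 0.585 in vehicle-treated mice, with a median of 0.161. These levels rested on 1 to 11 reads per mouse, so it was below the level at which genes were tested. The log2 difference was -0.23, within the scatter of the mice (exact permutation p = 0.104). At such low levels its size depends on the pseudocount, and it was -0.53 with 0.1 and -0.14 with 1 (exact permutation p = 0.126 and 0.102). The highest value again came from vehicle replicate 8, without which the difference was -0.14. Without vehicle replicate 2, the mouse with a single read, it was -0.29 and the exact permutation p was 0.0198, so 1 mouse decided on which side of 0.05 it fell.

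**Figure D1:**
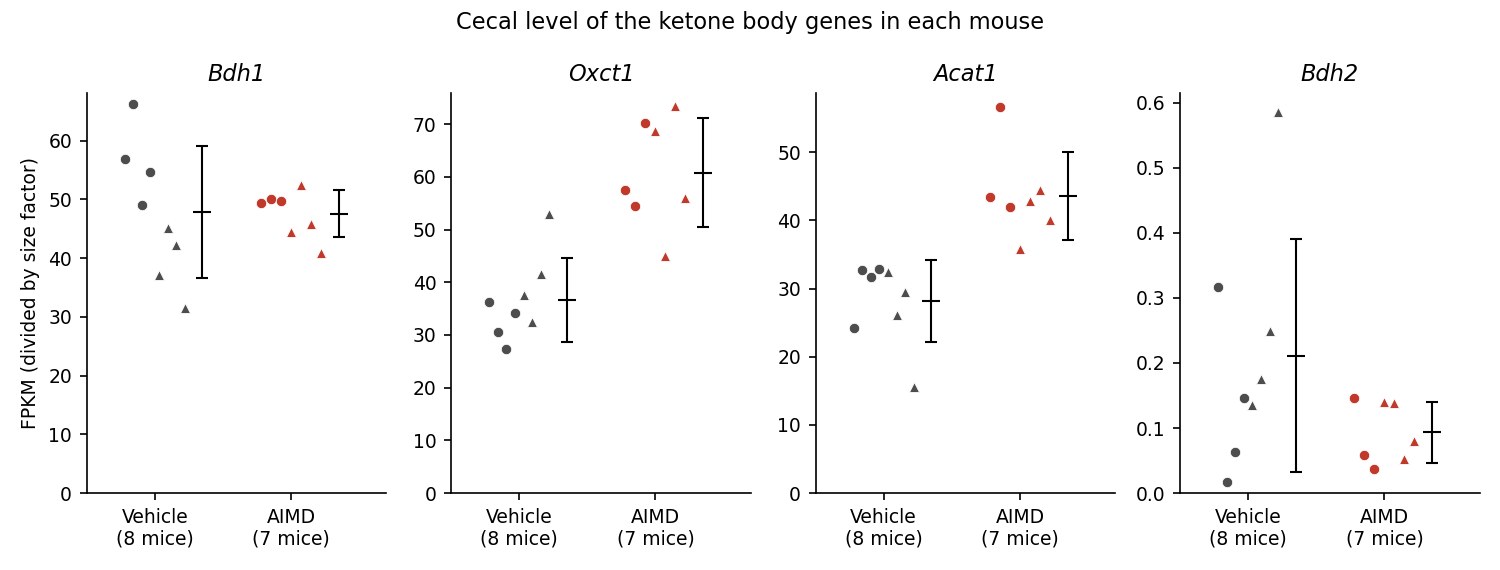
FPKM (vertical axis, linear, from 0) of the 4 ketone body genes in each vehicle-treated (grey) and AIMD (red) mouse, with mean and SD as the cross and bar beside the points. Circles are mice with a high clock-gene score and triangles mice with a low one, a score of circadian genes that is described in the text. AIMD mice are above the vehicle-treated mice for Oxct1, with 1 vehicle-treated mouse among them, and for Acat1, with none, while for Bdh1 they lie inside the vehicle range and Bdh2 stays below 0.6 in every mouse.

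So 2 of the 3 tested genes were called higher in AIMD mice, at a limma adjusted p under 0.05, and Bdh1 was not called. Over all 11971 genes tested, 36.0% were called, 19.4% higher and 16.6% lower, and the median log2 difference was 0.01. For Acat1 alone, every AIMD mouse was above every vehicle-treated mouse, which was the case for 5.26% of all genes tested. With 3 genes such shares are a description and say nothing of the pathway as a whole. The 3 genes rested on 724 to 4988 reads per mouse for Oxct1, 530 to 3628 for Bdh1 and 259 to 3025 for Acat1, against at most 11 for Bdh2.

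The order of the genes by mean level was not the same in the groups. FPKM are per length, so levels of different genes can be set side by side within a mouse. In AIMD mice the order was Oxct1, Bdh1, Acat1. Oxct1 was above Bdh1 in 6 of 7 mice, Bdh1 above Acat1 in 6 of 7 and Oxct1 above Acat1 in 6 of 7. None of these neighbours differed beyond their spread after adjustment over the 6 pairs tested (exact sign-flip permutation tests, adjusted p = 0.0938 for each of the 3 pairs). In vehicle-treated mice Bdh1 came first and was above Acat1 in 8 of 8 mice (exact sign-flip permutation p = 0.00781, adjusted p = 0.0469), and above Oxct1 in 6 of 8 (exact p = 0.141, adjusted p = 0.141). Oxct1 was above Acat1 in 6 of 8 of them (exact p = 0.0781, adjusted p = 0.0938). Without vehicle replicate 8, Bdh1 was above Acat1 in 7 of 7 mice (exact sign-flip permutation p = 0.0156, adjusted p = 0.0625). Bdh1 was above Oxct1 in 6 of 7 (exact p = 0.031, adjusted p = 0.0625), and Oxct1 was above Acat1 in 5 of 7 (adjusted p = 0.156). With 7 mice, 0.0156 is the smallest exact p, and a single pair at it cannot pass over 6 pairs. The same limit holds for the 7 AIMD mice.

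Setting each gene against Bdh1 in the same mouse shows this as a ratio. The ratio of Oxct1 to Bdh1 ran from 0.857 to 1.60 with a median of 1.37 in AIMD mice, and from 0.461 to 1.68 in vehicle-treated mice (median 0.678). The highest ratio of all was that of vehicle replicate 8, and the other 7 vehicle-treated mice ended at 1.01, below 6 of the 7 AIMD mice. The ratio of Acat1 to Bdh1 ran from 0.806 to 1.13 with a median of 0.882 in AIMD mice, and from 0.426 to 0.874 in vehicle-treated mice (median 0.589). Vehicle replicate 5 overlapped with the AIMD mice here, and vehicle replicate 8, at 0.494, was among its group.

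**Figure D2:**
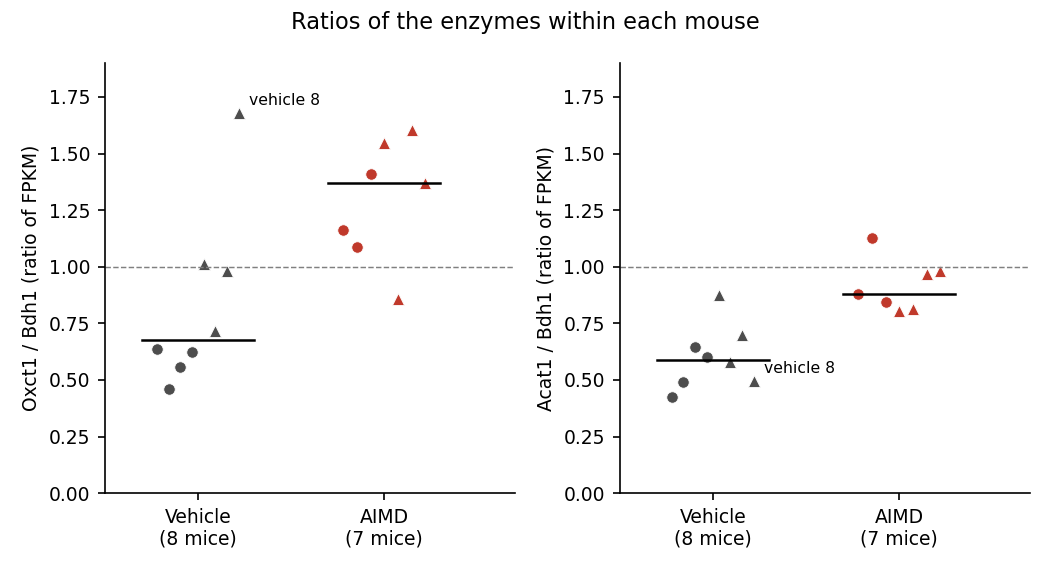
Ratio of FPKM within each mouse (vertical axis, linear, from 0) of Oxct1 to Bdh1 and of Acat1 to Bdh1, with the group median as a line, the dashed line at equal levels, and circles and triangles for mice with a high and a low clock-gene score. Most AIMD mice lie above 1 for Oxct1 over Bdh1 and 6 of 8 vehicle-treated mice below it, with vehicle replicates 5 and 8 at 1.01 and 1.68.

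The mice fell into 2 sets by their circadian clock genes, and the level of Bdh1 in vehicle-treated mice split with them. The study modelled the time of sacrifice, which the labels do not give. A clock-gene score was therefore taken for each mouse, as the mean log2 level of Arntl, Npas2, Clock and Nfil3 minus that of Dbp, Tef, Nr1d1, Nr1d2, Per3 and Ciart, which are known to peak at opposite times of day. It was 1.41 to 1.95 in AIMD replicates 1 to 3 and 2.11 to 2.20 in vehicle replicates 1 to 4. It was -1.04 to -0.58 in AIMD replicates 4 to 7 and -1.37 to -0.69 in vehicle replicates 5 to 8. Both groups thus held mice of either kind, and no mouse lay between. Of the genes of the score, Npas2 was itself called lower in AIMD mice (log2 difference -0.52, limma adjusted p = 0.0198), and the others were not called. Among the high-score mice every AIMD mouse had a lower score than every vehicle-treated mouse. The score can therefore carry the treatment as well as the time of day.

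Among vehicle-treated mice, all 4 with the high score had more Bdh1 (49.0 to 66.3 FPKM) than all 4 with the low score (31.5 to 45.2). In AIMD mice the same sets overlapped, with 49.3 to 50.1 in the 3 mice with the high score and 40.8 to 52.5 in the 4 with the low score. The AIMD difference in Bdh1 was -0.18 on the log2 scale within the high-score mice (exact permutation p = 0.143) and 0.24 within the low-score mice (exact permutation p = 0.171), or 0.14 without vehicle replicate 8 (exact permutation p = 0.314). With all mice, the values of both sets differ by -0.42 (standard error 0.21), which did not pass as an interaction term over all genes tested (limma adjusted p = 0.993). The ratio of Oxct1 to Bdh1 split with the score too in vehicle-treated mice, at 0.461 to 0.639 with the high score and 0.718 to 1.68 with the low score. In AIMD mice it was 1.09 to 1.41 and 0.857 to 1.60. Within the low-score mice the groups thus overlapped, also without vehicle replicate 8, where the vehicle-treated mice ended at 1.01.

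Oxct1 and Acat1 kept their direction in both sets. For Oxct1 the high-score mice had 54.4 to 70.3 FPKM with AIMD and 27.4 to 36.3 with vehicle, a log2 difference of 0.91 (exact permutation p = 0.0286, the smallest that 3 against 4 allow). In the low-score mice it was 45.0 to 73.5 against 32.5 to 53.0, a difference of 0.56 (exact permutation p = 0.0571). Acat1 was at 42.0 to 56.5 against 24.2 to 32.8 in the high-score mice and at 35.8 to 44.4 against 15.6 to 32.4 in the low-score mice, differences of 0.63 and 0.69 (exact permutation p = 0.0286 for each). By limma within the low-score mice neither gene passed (adjusted p = 0.0748 for Oxct1 and 0.0532 for Acat1). Without vehicle replicate 8, which is one of these mice, both did, with log2 differences of 0.69 for Oxct1 and 0.47 for Acat1 (limma adjusted p = 0.0223 and 0.0342). Neither difference passed as an interaction (limma adjusted p = 0.993 for Oxct1 and 0.999 for Acat1). With the score as a covariate over all mice, the log2 differences were 0.71 for Oxct1 (limma adjusted p = 0.000615) and 0.67 for Acat1 (limma adjusted p = 0.00133).

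**Figure D3:**
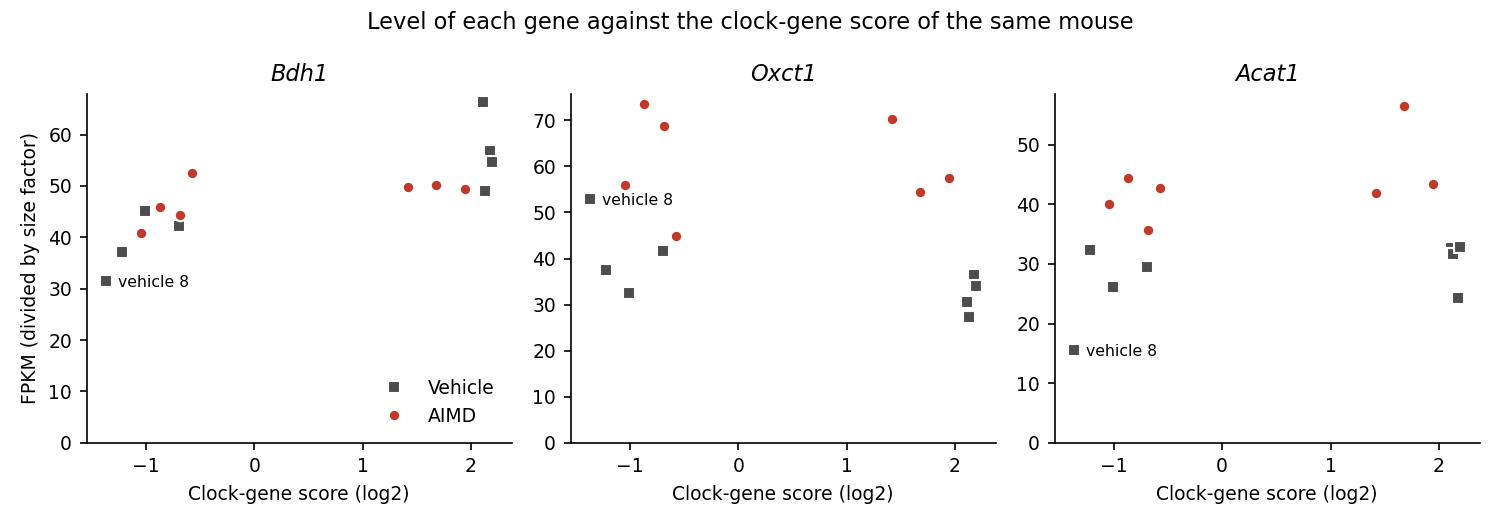
FPKM of Bdh1, Oxct1 and Acat1 (vertical axes, linear, from 0) against the clock-gene score of the same mouse (horizontal axis, a log2 difference), with vehicle-treated mice as grey squares and AIMD mice as red circles. Vehicle-treated mice with a score above 2 have more Bdh1 than those with a score below 0, and at either end of the axis AIMD mice have more Acat1 than vehicle-treated mice.

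The deviations of the genes from their group means were set side by side over all 15 mice. Pearson's r was -0.61 between Bdh1 and Oxct1, 0.56 between Bdh1 and Acat1 and -0.61 between Oxct1 and Acat1. These values rested largely on vehicle replicate 8, which had the most Oxct1 and the least Bdh1 and Acat1 of its group. Without it they were -0.38, 0.13 and -0.27 over 14 mice. For Oxct1 and Acat1, the genes that were higher in AIMD mice, the value thus moved from -0.61 to -0.27 without that mouse. Whether these values differ from 0 was not tested.

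The named genes most like each of them within the groups were found by the same measure. For Bdh1 these were Daglb (r = 0.96), Entpd6 (0.95) and Btbd2 (0.94) over the 15 mice, where both genes of a pair are read from the same libraries and so share their depth and clock-gene score. For Oxct1 they were Ada (0.85), F2r (0.83) and Rgs2 (0.83). Over the log2 levels themselves, in place of the deviations, r with Oxct1 was 0.95 for Ada, 0.31 for F2r and 0.13 for Rgs2. Ada, which encodes adenosine deaminase, was itself higher in AIMD mice, at 19.9 against 6.58 FPKM (log2 difference 1.54, limma adjusted p = 5.26e-05). For Acat1 they were Yars2 (0.95), Uqcrc2 (0.92) and Hao2 (0.92). Uqcrc2, which encodes a core subunit of respiratory complex III, was higher in AIMD mice too, at 279 against 163 FPKM (log2 difference 0.78, limma adjusted p = 0.000491). Without vehicle replicate 8 these correlations were 0.94 to 0.96 for Bdh1, 0.71 to 0.78 for Oxct1 and 0.77 to 0.84 for Acat1. Apart from Ada and Uqcrc2, none of these most alike genes was called (limma adjusted p = 0.187 to 0.990). Of all genes tested, 36.0% were called.

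The sequence around the start site is shown for Oxct1 and Bdh1, a gene that was higher and a gene whose mean was nearly the same. RefSeq promoter windows of 300 bases, which end 50 bases after the start site in GRCm38.p6, matched 3 of the 4 genes, Oxct1, Bdh1 (2 start sites) and Bdh2. They are printed on the plus strand, which is the strand of both genes, with each CG pair in capitals, the pair at which DNA can be methylated.
Oxct1, chr15:4026178-4026477: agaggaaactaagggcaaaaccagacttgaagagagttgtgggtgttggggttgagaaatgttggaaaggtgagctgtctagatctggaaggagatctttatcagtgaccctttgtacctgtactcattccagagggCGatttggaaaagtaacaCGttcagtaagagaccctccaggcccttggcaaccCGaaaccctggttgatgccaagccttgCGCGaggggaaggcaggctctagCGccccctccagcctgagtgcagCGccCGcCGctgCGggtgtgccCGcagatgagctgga
Bdh1, chr16:31422047-31422346: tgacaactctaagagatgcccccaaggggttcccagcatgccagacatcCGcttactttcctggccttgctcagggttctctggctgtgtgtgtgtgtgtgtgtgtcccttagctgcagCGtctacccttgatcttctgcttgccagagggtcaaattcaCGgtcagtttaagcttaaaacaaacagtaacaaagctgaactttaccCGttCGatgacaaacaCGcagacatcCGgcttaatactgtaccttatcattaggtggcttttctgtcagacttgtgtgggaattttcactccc
Bdh1, chr16:31428503-31428802: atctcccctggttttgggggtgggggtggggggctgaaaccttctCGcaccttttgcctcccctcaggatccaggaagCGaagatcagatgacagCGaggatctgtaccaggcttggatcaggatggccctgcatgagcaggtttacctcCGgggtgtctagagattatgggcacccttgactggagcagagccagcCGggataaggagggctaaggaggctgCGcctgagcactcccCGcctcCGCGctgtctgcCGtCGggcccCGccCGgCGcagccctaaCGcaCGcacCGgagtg
The Oxct1 window holds 11 CG pairs and 55.3% G and C. The Bdh1 windows hold 7 and 17 CG pairs and 48.3% and 63.7% G and C. Over all promoters of the table the medians are 7 CG pairs and 52.7%.

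Short motifs, none of which contains another, were searched on both strands of these windows. The nuclear receptor half-site AGGTCA is in 16.3% of all 32851 promoters of the table and the Sp-family box GGGCGG in 35.7% of them. The CCAAT box is in 37.4% and the clock-linked E-box CACGTG in 7.15%. The cyclic AMP response element TGACGTCA is in 1.79%, the D-box of the Dbp family, TTATGTAA, in 0.938% and the TATA box, spelled TATAAA, in 13.6%. The Oxct1 window and the upstream Bdh1 window hold none of these letters. The downstream Bdh1 window holds GGGCGG on the minus strand, 15 bases after the start site, and the Bdh2 window CCAAT on the minus strand, 141 bases before it. A match is a description of the letters and not a site of binding.

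Some reads of these genes could belong to neighbours. Of the 50-base windows of the Oxct1 transcripts, 11.2% also occur in BC037032 and of those of Bdh1 11.1% in Gm15743, each on the opposite strand. The libraries were stranded, but whether counting used the strand is not given in the sources used here. BC037032 had means of 0.0428 and 0.0199 FPKM in AIMD and vehicle-treated mice, and Gm15743 had 0.412 and 0.684, both far below the genes they overlap. Acat1 and Bdh2 shared no such window with another gene.

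The rest of the pathway was described by 7 lists of 56 genes that supply, carry or control these reactions. Of the 49 tested, 5 were higher and 12 lower in AIMD mice, or 34.7% in either direction beside 36.0% of all genes tested. Their median log2 difference was 0.00. Without vehicle replicate 8, 19 were called. Slc16a6, Echs1 and Dbt then passed and Mvk did not. Over all genes tested, 19.4% were called higher and 16.6% lower. The counts of the lists below are descriptions to be read beside these shares.

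A list of 6 other genes of ketone body use and thiolases held 3 that were tested, and none of these 3 passed, with limma adjusted p of 0.144 to 0.979. Aacs, which makes acetoacetyl-CoA in the cytosol, was at 10.7 ± 2.68 (SD, n = 7) and 10.5 ± 1.65 (SD, n = 8) FPKM in AIMD and vehicle-treated mice (limma adjusted p = 0.979). Acat2, the cytosolic counterpart of Acat1, was at 16.8 and 14.2 (log2 difference 0.24, limma adjusted p = 0.144), and 39.1% of its windows occur in other genes. Acaa2, a mitochondrial thiolase of fatty acid oxidation, was at 109 and 129 (log2 difference -0.21, limma adjusted p = 0.329). The testis forms Oxct2a and Oxct2b were at most 0.0505 and 0.123 FPKM in any mouse, and they and Acat3 were too low to be tested.

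Of 5 tested transport genes, 3 were lower in AIMD mice and 1 was higher. The median log2 difference was -0.53. Slc16a1, which encodes the carrier MCT1 of ketone bodies, lactate and butyrate, was at 210 to 329 FPKM with AIMD and 296 to 643 with vehicle (log2 difference -0.89, standard error 0.17, limma adjusted p = 0.000935). The lowest of the vehicle-treated mice was again replicate 8, and the others began at 383, above every AIMD mouse. Slc5a8, a sodium-coupled carrier of such acids, fell by 1.15 on the log2 scale (limma adjusted p = 0.000625). Bsg, which encodes the partner protein that brings MCT1 to the membrane, fell by 0.53 (limma adjusted p = 0.0122). Slc16a3, which encodes MCT4, a carrier known for lactate export, was higher, at 1.41 to 3.63 FPKM against 0.201 to 0.505 (log2 difference 1.71, limma adjusted p = 6.36e-07). Slc16a6, a ketone body exporter, was at 0.891 and 0.590 FPKM and did not pass (limma adjusted p = 0.0709), but did without vehicle replicate 8 (log2 difference 0.47, limma adjusted p = 0.00985). The receptor Hcar2, which binds beta-hydroxybutyrate and butyrate, was at 0.376 and 0.305 FPKM, too low to be tested.

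The acyl-CoA supply held 11 tested genes, of which 5 were called lower by limma and the other 6 were not called, with a median of -0.32. The thiolase subunit gene Hadhb was at 10.4 and 21.3 FPKM in AIMD and vehicle-treated mice (log2 difference -1.01, limma adjusted p = 0.000373), and Cpt2, needed for the entry of fatty acids into mitochondria, was at 46.2 and 80.3 without overlap of the groups (log2 difference -0.80, limma adjusted p = 6.82e-05). Hadh, Cpt1a and Acss1 were the others, with log2 differences of -0.86, -0.45 and -0.32. Acads, the dehydrogenase of butyryl-CoA, was at 56.1 and 76.2 FPKM and did not pass (limma adjusted p = 0.241).

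Of 6 tested regulators, 2 were higher and 3 lower. Ppara, the nuclear receptor that drives fatty acid oxidation and ketogenesis in liver, was at 1.65 and 1.02 FPKM (log2 difference 0.49, limma adjusted p = 0.00507). Sirt3, a mitochondrial deacetylase, was at 4.64 and 2.21 (log2 difference 0.93, limma adjusted p = 0.00293). Pdk4, which encodes a kinase that shuts off pyruvate dehydrogenase and is a known target of Ppara, moved the other way, at 2.76 to 4.05 FPKM with AIMD and 5.81 to 18.9 with vehicle (log2 difference -1.28, limma adjusted p = 7.14e-05). Foxa2 and Sirt5 fell by 1.10 and 0.90 on the log2 scale (limma adjusted p = 0.00473 and 0.00611). Fgf21, a fasting hormone, was listed at 0 in every mouse.

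Genes that share intermediates with Acat1 were mostly not called, as were most genes tested, of which 36.0% were called. In the cytosolic mevalonate pathway, which also uses acetoacetyl-CoA, 2 of 6 were higher, namely Hmgcs1, at 148 and 83.3 FPKM (log2 difference 0.86, limma adjusted p = 0.00476), and Mvk, at 2.60 and 1.65 (log2 difference 0.53, limma adjusted p = 0.0460, or 0.0553 without vehicle replicate 8). In leucine and isoleucine breakdown, 1 of 11 was lower, namely Auh (log2 difference -0.35, limma adjusted p = 0.0274), and the median was -0.09. The 7 genes of mitochondrial content had limma adjusted p of 0.0933 to 0.993. Their median log2 difference was 0.23, and Cs, citrate synthase, was at 147 ± 16.9 (SD, n = 7) and 148 ± 21.7 (SD, n = 8) FPKM.

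**Figure D4:**
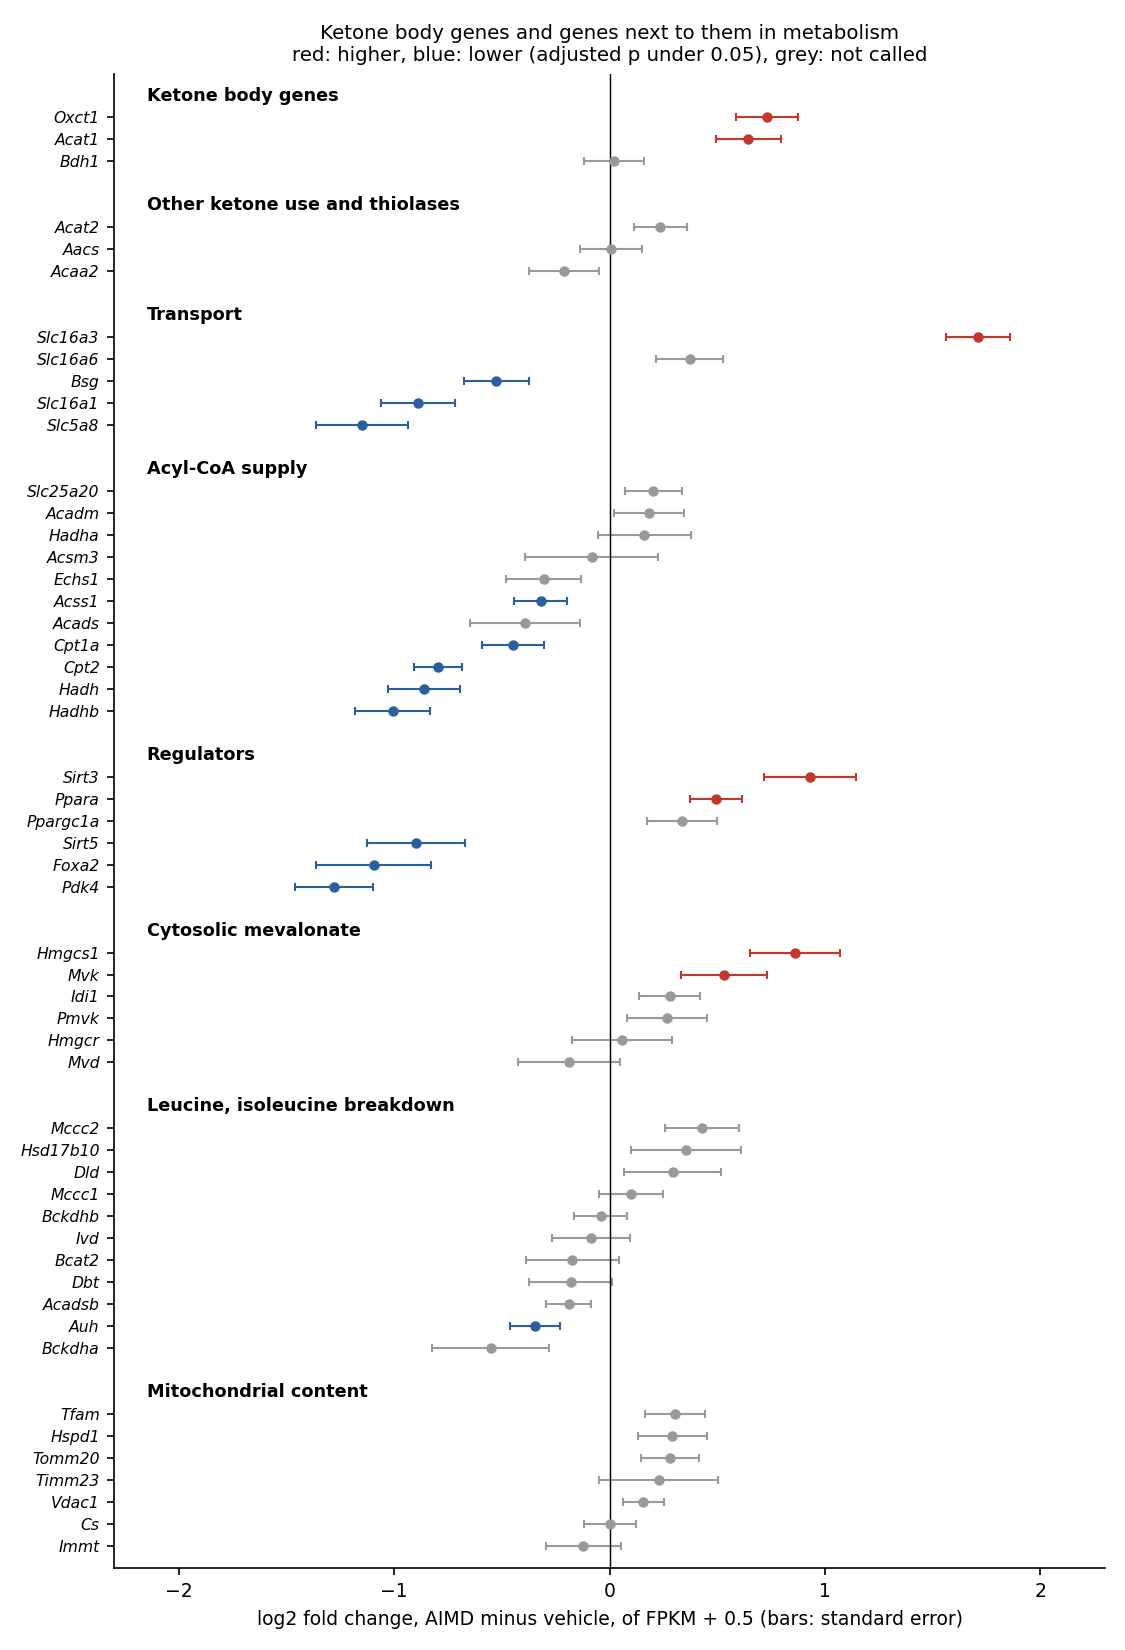
Log2 difference, AIMD minus vehicle, of FPKM + 0.5 (horizontal axis) for the 3 tested ketone body genes and the 49 tested genes of 7 lists, with the standard error as a bar, red for genes called higher, blue for genes called lower and grey for the rest. Oxct1 and Acat1 lie to the right of 0 and Bdh1 on it, while the transport and acyl-CoA supply genes called lower reach -1.15.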

How the data were processed

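Poly-A RNA of the cecum of 7 AIMD and 8 vehicle-treated mice had been sequenced from stranded libraries with 50-base single reads. Alignment by the authors was to GRCm38 with STAR, followed by counting on GENCODE genes with featureCounts, and the values deposited are FPKM for each symbol in each mouse. Their own model held treatment and time of sacrifice. How counts became FPKM is not given in the sources used here.

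Of 45808 rows, 4 carried a repeated symbol and were not used. Median-of-ratios size factors were 1.01 in every mouse, and FPKM were divided by them. Then log2(FPKM + 0.5) was tested with limma 3.58.1 (R 4.3.3; lmFit, eBayes with trend) over 11971 genes with at least 0.5 in at least 7 mice. Tests were two-sided, with Benjamini-Hochberg adjusted p under 0.05 as a call. On this scale the change of low genes is understated. Single values were also compared by exact permutation of the group labels in all 6435 ways. The labels number the mice and do not name litters or cages, so p-values measure the spread between these mice. The paper states that mice shared cages, and the tests took each mouse as independent.

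Reads were recovered from the steps of the FPKM values for 100.0% of 24279 genes above 0. Exon lengths of GENCODE M21, also used for positions, gave whole reads within 0.02 for 68.1% of them. For the rest the shortest length that gave whole reads was taken, so their reads can be too few. Counting error limits the precision of low genes. Both methods were tested on simulated data. Python 3.11.15 was used with scipy 1.17.1, numpy 2.4.6 and pandas 2.3.3, and figures with matplotlib 3.10.9.

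The genes named are the 4 ketone body genes, the members of the lists and, for each tested gene, the 3 with the highest correlation of deviations from the group means, leaving out predicted-gene symbols. These genes and lists were chosen with earlier results of these data known. Some genes of the pathway are not reported here. Alternatives were other scalings, pseudocounts, no filter, limma voom on recovered reads, a clock-gene covariate, a replicate block and each mouse left out. The split by clock-gene set, also without vehicle replicate 8, its use as a covariate and the 14-mouse fit without a block were added after the data were seen.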

Additional observations from a re-analysis of the deposited data

Results flagged for a closer look

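Within a group, 6 of 42 sets of values over 21 genes had a highest or lowest mouse that stood apart by Dixon's criterion, where chance gives about 1 in 20. Acat1 was 56.5 FPKM in AIMD replicate 2, and the next mouse was at 44.4. Without it the log2 difference of Acat1 was 0.58 (limma adjusted p = 0.00930).

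In AIMD replicate 4, Slc5a8 was 38.8 FPKM (next 20.8) and Hmgcs1 was 225 (next 149). Bsg was 1664 FPKM in vehicle replicate 1, and the next mouse was at 1218. In vehicle replicate 8, Hadh was 123 FPKM, below the next mouse at 216, and Pdk4 was 18.9, above the next mouse at 11.3. Without that mouse both were still called lower in AIMD mice, with log2 differences of -0.98 for Hadh and -1.13 for Pdk4 (limma adjusted p = 3.63e-05 and 1.38e-05).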

How the results depend on the processing

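Oxct1 and Acat1 kept their direction under every alternative run and were called in all but 1 each. Within the mice with the low clock-gene score, Oxct1 was 0.56 (limma adjusted p = 0.0748) and Acat1 was 0.70 (limma adjusted p = 0.0532), with 4 mice a group, and both were called again without vehicle replicate 8. Bdh2 was -0.53 with a pseudocount of 0.1 and -0.14 with 1. When any 1 mouse was dropped, the log2 difference was 0.68 to 0.81 for Oxct1 and 0.53 to 0.70 for Acat1, -0.057 to 0.093 for Bdh1 and -0.29 to -0.14 for Bdh2. Bdh1 was not called under any of them, and its sign turned with upper-quartile scaling (-0.016), with the replicate block and in the same 14 mice without it (-0.057 for both), and in the mice with the high clock-gene score (-0.17), where the cause was not tested. Leaving out vehicle replicate 5, 7 or 8 or AIMD replicate 5 turned it too (-0.027, -0.0025, -0.057 and -0.0018).

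Of all genes tested, 1888 were called within the high-score mice and 2478 within the low-score mice, where 9 genes of the pathway lists were called, with fewer mice in each. Without vehicle replicate 8 the low-score mice gave 3747 genes and 17 of the pathway. With 1 mouse dropped the counts were 3503 to 4609 genes and 14 to 19 of the pathway. Upper-quartile scaling moved the share of calls that were higher from 53.8% to 49.4%. Bdh2 was not run with quantile scaling, voom, the clock-gene terms or the block.

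Mice with the same replicate number did not deviate together, with correlations of -0.35 to 0.43, and only replicate 7 correlated best with its own number. The replicate block over 14 mice gave 0.81 for Oxct1 (limma adjusted p = 0.00178), 0.53 for Acat1 (0.00578) and -0.057 for Bdh1 (0.740), and 4646 genes called against 4639 in the same mice without it. Bdh2, with at most 11 reads a mouse, is limited by depth.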
